A study of Mus musculus with 32 samples.

Results

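The lesioned hemisphere of WT mice whose brain macrophages had been depleted and allowed to return was compared with the lesioned hemisphere of vehicle-treated WT mice, 1 day after stroke. Of the 32 samples in the series, 8 were used, the ipsilateral whole-tissue libraries, chosen by hemisphere, treatment and mouse as the sample labels give them, and the 8 contralateral libraries of the same mice serve for scaling and are given beside them. They came from 4 mice given BLZ945 (C2, C3, C4 and D1) and 4 control (CTL) mice given vehicle (A2, A3, A4 and B1). BLZ945 inhibits the kinase of the CSF1 receptor, which microglia and most border-associated macrophages need to survive, and was given by oral gavage at 200 mg/kg daily for 7 days. CTL mice received the vehicle, hydroxypropyl-β-cyclodextrin, over the same days. Stroke was induced 8 weeks later by injecting thrombin into the middle cerebral artery, and tissue was taken 1 day after it. All mice were adult C57BL/6JCrl animals without a transgene, the study's methods give both sexes in each group, and each library is sectioned tissue from 1 hemisphere of 1 mouse. The comparison asks whether lesioned tissue holding repopulated macrophages differed in RNA from lesioned tissue holding the original ones.

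Libraries held 12450565, 11480413, 11310762 and 11945178 counted reads in the CTL mice and 10291030, 10267779, 9288717 and 9641508 in the BLZ945 mice. Here and below, values per mouse follow the order A2, A3, A4 and B1 for CTL and C2, C3, C4 and D1 for BLZ945. Every CTL library was deeper than every BLZ945 library (exact two-sided permutation test, p = 0.0286, the smallest p that 4 against 4 mice can give), so depth and treatment cannot be told apart. A count of 3 in a library corresponds to 0.241 to 0.323 CPM (counts per 1e6 counted reads), and this floor covers counting error only. The labels of 1 mouse conflict with the count table. For A3, the column names of the table give library 19 as contralateral and library 20 as ipsilateral, and the sample labels give the reverse. Library 19 was taken as ipsilateral, and results are also given without A3 and with its libraries exchanged. Levels are in CPM scaled by TMM over the 16 tissue libraries, are not divided by transcript length, and are compared between mice, so that the most abundant gene of a list is the gene with the most reads and not with the most transcripts.

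Microglia live in the brain parenchyma and border-associated macrophages along its vessels and membranes, and once CSF1 receptor inhibition ends microglia regrow from surviving cells, while border-associated macrophages also take in cells from the blood. After a stroke, these cells, reactive astrocytes, vessel cells and arriving blood leukocytes switch on cytokines, interferon-stimulated genes, proteases and matrix genes. In whole tissue the RNA of all these cells is mixed, so fewer cells of a type and less RNA per cell cannot be told apart.

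Markers of brain tissue and of injury were present in all 8 libraries. Neuronal markers summed to 11001, 10976, 11822 and 10928 CPM in CTL and 10293, 14023, 10788 and 10360.0 CPM in BLZ945, with the synaptic gene Snap25 the most abundant of them. Both groups held like levels of neuronal markers, apart from a higher sum in C3. Osmr, the receptor subunit for oncostatin M, was at 25.5, 23.1, 21.4 and 27.4 CPM in the CTL and 31.9, 35.6, 30.8 and 36.6 CPM in the BLZ945 ipsilateral libraries, against 5.55, 6.71, 5.16 and 4.62 CPM and 6.21, 6.17, 5.21 and 5.24 CPM contralaterally. Hmox1, which degrades heme, was at 29.3, 46.0, 38.5 and 57.8 CPM in CTL and 62.6, 69.1, 40.4 and 86.6 CPM in BLZ945 ipsilaterally, against 5.47, 6.97, 6.19 and 5.64 CPM and 6.54, 9.51, 7.63 and 6.55 CPM contralaterally. In both genes, which were chosen for this check after their values were seen, every library labelled ipsilateral was above every library labelled contralateral, library 19 of A3 among them.

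No gene passed the test between BLZ945 and CTL in the lesioned hemisphere. Most interferon-stimulated, reactive astrocyte, collagen and plasminogen genes had a higher mean there in BLZ945. All markers of the oligodendrocyte lineage had a lower mean, in the lesioned and in the contralateral hemisphere. The single genes with the clearest separation were Gpr17, lower in all 4 BLZ945 mice than in any CTL mouse, and Fndc3b and Prg4, higher in all 4. Among 19211 genes tested with the edgeR quasi-likelihood test, 0 (0%) passed a Benjamini-Hochberg adjusted p of 0.05 with a log2 fold change beyond 0.59, and the smallest adjusted p was 0.988. At an unadjusted p under 0.05 there were 668 genes, 334 (1.74%) higher in BLZ945 and 334 (1.74%) lower. That total was 1278 without A4, the mouse whose omission moved it most, and no gene passed there either (smallest adjusted p 0.0745 by edgeR). DESeq2, run on the same counts, called 3 genes, Gpr17, Prg4 and Cabp7, and had 574 at an unadjusted p under 0.05. The values of the groups did not overlap for 222 genes (1.16%) with higher and 209 genes (1.09%) with lower levels in BLZ945. Without any difference, 4 against 4 mice fail to overlap, in either direction, with probability 0.0286, the smallest p of the exact two-sided permutation test. These shares are not above chance, nor are the 668 genes, which are under a share of 0.05 of those tested. Genes named for not overlapping were picked by that trait, so it is not separate evidence. Over all genes tested, 48.8% had a higher mean in BLZ945 and the median log2 fold change was -0.01, against which the gene groups below are read. Fold changes are log2 of BLZ945 over CTL from edgeR, given ± their standard error (4 mice per group). The p tests the difference between the group means against the spread between mice. Each gene named had an adjusted p of 0.988 or above by edgeR. A difference between the hemispheres is the ipsilateral fold change minus the contralateral one, fitted to the 16 libraries together without a block for the mouse. It is not the ipsilateral level over the contralateral level. Where leaving out a mouse moved a fold change or the median of a list by more than 1.5 times, the range over all such omissions follows in square brackets.

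Gpr17, a receptor of committed oligodendrocyte precursors, was at 52.5, 56.9, 52.1 and 61.9 CPM in CTL and 31.5, 24.5, 25.6 and 39.6 CPM in BLZ945. All 4 BLZ945 mice were below all CTL mice, with C3 and C4 the lowest. Its log2 fold change was -0.89 ± 0.15, or -0.88 without A3, and DESeq2 gave an adjusted p of 0.000922. Contralaterally, Gpr17 also had a lower mean, at -0.51, and the difference between the hemispheres was -0.37. Prg4, the secreted lubricant proteoglycan lubricin, was at 10.4, 3.60, 9.46 and 6.26 CPM in CTL and 41.2, 14.5, 18.7 and 21.5 CPM in BLZ945. The groups did not overlap, C2 had the highest level and A3 the lowest. Its log2 fold change was 1.68 ± 0.37, or 1.45 without A3, with a DESeq2 adjusted p of 0.0316. Contralaterally the Prg4 fold change was 0.18, and the difference between the hemispheres was 1.4996. Fndc3b, an endoplasmic reticulum membrane protein with fibronectin type III domains, was at 22.4, 25.5, 24.6 and 19.9 CPM in CTL and 33.3, 32.3, 32.4 and 33.4 CPM in BLZ945. The BLZ945 mice lay close together above all CTL mice, at 0.50 ± 0.10, or 0.55 without A3, and the DESeq2 adjusted p of 0.0457 came with a fold change under 0.59. Cabp7, a neuronal calcium-binding protein named here after its values were seen, was at 65.9, 56.1, 24.8 and 84.3 CPM in CTL and 23.99, 16.04, 26.8 and 22.4 CPM in BLZ945. Cabp7 overlapped between the groups, since A4 lay within the BLZ945 range. Its log2 fold change was -1.38 ± 0.30, or -1.40 without A3, the DESeq2 adjusted p was 0.0383, and the contralateral fold change was -1.25.

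**Figure D1:**
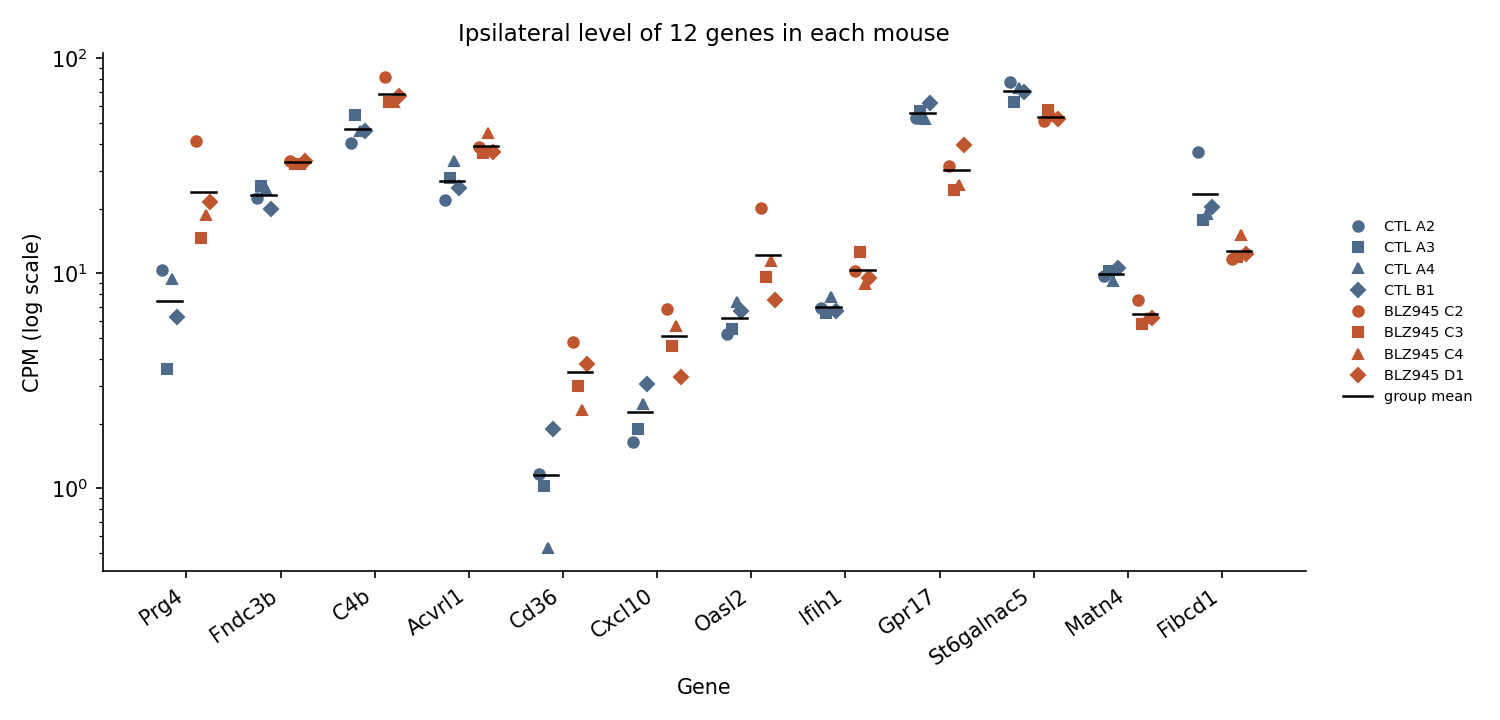
Level of 12 genes in each ipsilateral library, in CPM on a log axis, with 1 point per mouse (4 CTL, 4 BLZ945) and a line at each group mean. BLZ945 mice lie above all CTL mice from Prg4 to Ifih1 and below them from Gpr17 to Fibcd1, with Gpr17 at 24.5 to 39.6 CPM against 52.1 to 61.9 CPM.

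Interferon-stimulated genes had a higher group mean in BLZ945 almost throughout, although most overlapped between the groups. Of 32 members tested, 17 had a higher mean at an unadjusted p under 0.05, against 1.74% of all genes tested. The groups did not overlap for 7 members, against 1.16% of all genes. A higher mean in BLZ945 was found for 31 of the 32, the exception being Oas2, with a median log2 fold change of 0.65. Their summed level was 155, 154, 180.4 and 183 CPM in CTL and 319, 193, 222 and 204 CPM in BLZ945. All 4 BLZ945 sums were above all CTL sums, and C2 stood well above the rest. The count of 17 was 6 without C2, 9 without A2 and 11 without A3, and the median ranged from 0.46 to 0.80 as each mouse was left out. With sex as a covariate the count was 4 and the median 0.55. Contralaterally the same list had 22 of 32 members higher, 1 with an unadjusted p under 0.05 (1.55% of all genes tested), and a median of 0.15. For the difference between the hemispheres, 3 members had an unadjusted p under 0.05, against 2.04% of all genes tested. Ifih1, which encodes the RNA sensor MDA5, was at 6.87, 6.52, 7.78 and 6.67 CPM in CTL and 10.3, 12.6, 8.93 and 9.49 CPM in BLZ945. No BLZ945 mouse reached down to the CTL range, and the fold change was 0.56 ± 0.16, or 0.53 without A3.

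Oasl2, an antiviral protein of the oligoadenylate synthetase family, was at 5.23, 5.49, 7.34 and 6.67 CPM in CTL and 20.1, 9.62, 11.5 and 7.49 CPM in BLZ945. C2 was highest and D1 lay just above the highest CTL mouse, with a fold change of 0.97 ± 0.28 [0.61 to 1.14], or 0.92 without A3. Psmb8, a subunit of the immunoproteasome, was at 1.80, 3.09, 2.56 and 3.54 CPM in CTL and 5.76, 3.91, 5.04 and 5.39 CPM in BLZ945. The lowest BLZ945 mouse, C3, was above the highest CTL mouse, B1, with a fold change of 0.86 ± 0.25, or 0.92 without A3. Stat2, a transcription factor of the interferon response and the member with the highest CPM, was at 28.3, 26.1, 28.3 and 33.6 CPM in CTL and 32.02, 29.3, 31.4 and 31.8 CPM in BLZ945. Stat2 levels overlapped, with B1 the highest mouse, and the fold change was 0.09 ± 0.10 [0.04 to 0.17]. Cxcl10, an interferon-induced chemokine for T cells, was at 1.64, 1.89, 2.48 and 3.05 CPM in CTL and 6.80, 4.61, 5.68 and 3.30 CPM in BLZ945. D1 lay just above B1, the other BLZ945 mice well above all CTL mice, and the fold change was 1.16 ± 0.29, or 1.08 without A3. Contralaterally, Cxcl10 was at 0.0793, 0.425, 0.103 and 0 CPM in CTL, with A2, A4 and B1 under the floor of 3 counts, and 1.07, 0.418, 0.372 and 0.187 CPM in BLZ945, with D1 under it.

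Since these genes are known to share interferon-responsive promoter elements, their promoter sequences were searched for GAAA, any 2 bases and GAAA again, on both strands, a motif chosen after the data were seen. Promoters of 300 bases (250 before and 50 after the gene start) were taken from RefSeq, build GRCm38.p6, matched by symbol. The motif was present for 13 of 23 interferon-stimulated genes with a promoter sequence (56.5%), for 515 of 14026 tested genes (3.67%) and for 1079 of all 27025 genes with a sequence (3.99%). A match is a description of the sequence and not a site or a cause. Ifih1, Ifit3 and Bst2 are shown as members with 1, 2 and 2 matches, the last pair chosen after their values were seen, while Oasl2 and Psmb8 had no match in this window. Ifit3 was at 7.11, 5.92, 8.31 and 7.66 CPM in CTL and 21.7, 9.62, 10.5 and 8.69 CPM in BLZ945, and Bst2, which tethers virus particles to the cell, was at 2.73, 3.86, 6.10 and 4.04 CPM and 12.9, 6.82, 4.52 and 7.49 CPM. All BLZ945 mice were above all CTL mice for Ifit3, and C2 was the highest mouse for both genes. The Ifih1 promoter is at chr2:62646206-62646505 on the minus strand, that of Ifit3 at chr19:34583279-34583578 on the plus strand and that of Bst2 at chr8:71537423-71537722 on the minus strand, with the motif in capitals.
Ifih1: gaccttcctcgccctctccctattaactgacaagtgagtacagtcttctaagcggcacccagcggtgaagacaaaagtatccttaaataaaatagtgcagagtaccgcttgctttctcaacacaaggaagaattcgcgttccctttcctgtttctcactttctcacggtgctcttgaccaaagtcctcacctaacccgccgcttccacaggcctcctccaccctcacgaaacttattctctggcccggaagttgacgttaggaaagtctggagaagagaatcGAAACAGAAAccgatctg
Ifit3: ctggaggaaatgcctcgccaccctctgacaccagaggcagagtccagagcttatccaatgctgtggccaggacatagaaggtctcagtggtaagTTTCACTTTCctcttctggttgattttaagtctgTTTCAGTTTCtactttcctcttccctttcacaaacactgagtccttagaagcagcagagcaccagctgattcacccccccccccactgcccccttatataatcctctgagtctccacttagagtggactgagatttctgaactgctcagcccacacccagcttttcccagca
Bst2: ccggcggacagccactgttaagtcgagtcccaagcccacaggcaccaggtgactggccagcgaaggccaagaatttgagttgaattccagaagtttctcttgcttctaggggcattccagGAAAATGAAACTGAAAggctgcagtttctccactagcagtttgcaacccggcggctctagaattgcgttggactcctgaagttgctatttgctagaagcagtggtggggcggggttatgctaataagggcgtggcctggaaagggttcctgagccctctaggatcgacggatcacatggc

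Reactive astrocyte genes and the interleukin-6 family that acts on astrocytes had higher means in BLZ945 for most members. Of 22 reactive astrocyte genes, 19 had a higher mean and 6 of these an unadjusted p under 0.05, against 1.74% of all genes tested. The median of the list was 0.36 [0.19 to 0.46], or 0.40 without A3, 0.19 without A4, 0.20 without C2, 0.26 with sex as a covariate and 0.06 contralaterally. Osmr, whose values are given above, did not overlap between the groups, with a fold change of 0.46 ± 0.11, or 0.44 without A3, and a difference between the hemispheres of 0.42. Gfap, the intermediate filament of astrocytes, was at 675, 744, 428 and 744 CPM in CTL and 1062, 829.7, 812 and 797 CPM in BLZ945. A4 was the lowest mouse, C2 the highest, the groups did not overlap, and the fold change was 0.43 ± 0.17 [0.27 to 0.50], or 0.50 without A3. Timp1, an inhibitor of matrix metalloproteinases, was at 4.45, 3.52, 4.24 and 7.25 CPM in CTL and 17.8, 5.92, 8.41 and 8.49 CPM in BLZ945. C2 was far above the rest, C3 lay below B1, and the fold change was 1.05 ± 0.34 [0.63 to 1.31], or 0.92 without A3. S100a10, an annexin partner, had means of 22.04 and 28.9 CPM and a fold change of 0.38 ± 0.14. Of the interleukin-6 family and STAT3 genes, all 12 of 12 had a higher mean, but 10 without A3, with a median of 0.35 (0.18 to 0.58 as each mouse was left out, lowest without C2).

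Lif, a cytokine of this family, was at 4.06, 2.06, 0.973 and 3.38 CPM in CTL and 8.12, 2.61, 4.41 and 7.79 CPM in BLZ945. A4 was lowest, C3 overlapped the CTL mice, and the fold change was 1.11 ± 0.45, or 1.01 without A3. Il6st, the shared receptor subunit, was at 129 CPM on average in CTL and 136 CPM in BLZ945. The astrocyte identity markers did not share the direction of the reactive genes. Of 10 such markers, 9 had a lower mean in BLZ945, with a median of -0.15 and -0.02 contralaterally. Gja1, the gap junction protein connexin 43, was at 138, 192, 178 and 197 CPM in CTL and 161, 123, 121 and 156 CPM in BLZ945, with a fold change of -0.34 ± 0.14, or -0.30 without A3.

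Complement genes, many of them made by microglia and astrocytes, had a higher mean in BLZ945 for 13 of 15 members, with a median of 0.30 [0.19 to 0.40], or 0.35 without A3 and 0.15 contralaterally, and 0.19 without A4 and 0.20 without C2. C4b, a component of the classical pathway, was at 40.3, 54.7, 45.7 and 46.0 CPM in CTL and 82.2, 62.3, 62.3 and 67.0 CPM in BLZ945. No mouse crossed between the groups, C2 was highest, and the fold change was 0.54 ± 0.12, or 0.63 without A3, against 0.35 contralaterally. C3ar1, a receptor for a complement cleavage product, was at 9.99, 8.49, 6.72 and 7.91 CPM in CTL and 16.5, 13.2, 5.99 and 16.1 CPM in BLZ945. C4 had the lowest C3ar1 level of all mice and the other BLZ945 mice the highest, with a fold change of 0.64 ± 0.28, or 0.65 without A3. C1qa, which forms part of the recognition molecule of the pathway, had means of 77.6 and 88.7 CPM.

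Most plasminogen and coagulation genes had a higher mean in BLZ945, but their summed level was not higher. Of 11 members, 8 had a higher mean, 4 of them at an unadjusted p under 0.05, against 1.74% of all genes tested. A lower mean at that p was found for 1 member. The median of the 11 was 0.77, or 0.75 without A3 and -0.00 contralaterally. They summed to 359.9, 408, 374 and 462 CPM in CTL and 419.9, 336, 368 and 407 CPM in BLZ945, so the sums overlapped, with B1 highest and C3 lowest. The count of 4 stayed between 3 and 6 as each mouse was left out. Plau, the urokinase-type activator, was at 3.04, 2.74, 2.21 and 4.45 CPM in CTL and 8.31, 7.12, 3.47 and 10.2 CPM in BLZ945. C4 lay within the CTL range and the other BLZ945 mice above it, with a fold change of 1.21 ± 0.33, or 1.16 without A3, and a difference between the hemispheres of 1.08. Thbd, thrombomodulin, which turns thrombin toward activating protein C, was at 23.7, 18.3, 14.9 and 16.9 CPM in CTL and 47.0, 22.7, 21.5 and 34.96 CPM in BLZ945. C3 and C4 lay below A2, the highest CTL mouse, and the fold change was 0.77 ± 0.25 [0.50 to 0.91], or 0.76 without A3. Serpine2, an inhibitor of thrombin made by glia, had the opposite sign, at 218, 259, 247 and 295 CPM in CTL and 225, 196, 219 and 229 CPM in BLZ945, with a fold change of -0.24 ± 0.10, or -0.23 without A3.

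Collagen and basement membrane genes had a higher mean in BLZ945 for 18 of 20 members, with a median of 0.32, or 0.35 without A3 and -0.05 contralaterally. Their summed level was 536, 578, 554 and 582 CPM in CTL and 839.7, 592, 676 and 689 CPM in BLZ945. The sums did not overlap, with C2 far the highest and C3 close to the CTL mice. Col4a1, the main chain of vascular basement membrane collagen, was at 77.1, 87.3, 72.2 and 89.3 CPM in CTL and 121, 91.0, 99.2 and 117 CPM in BLZ945. C3 lay just above B1, the groups did not overlap, and the fold change was 0.39 ± 0.11, or 0.42 without A3, with a difference between the hemispheres of 0.57. Fn1, fibronectin, was at 106, 119, 119 and 133 CPM in CTL and 197, 123, 147 and 181 CPM in BLZ945. C3 overlapped the CTL mice, C2 was highest, and the fold change was 0.43 ± 0.14, or 0.43 without A3. Col6a2, a collagen VI chain, had a fold change of 0.42 ± 0.17, and Col5a2, a fibrillar collagen chain, of 0.57 ± 0.24 [0.38 to 0.69].

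Meningeal fibroblast markers had a higher mean in BLZ945 for all 9 of 9 members, with a median of 0.47 [0.23 to 0.60], or 0.42 without A3, 0.23 without C2 and -0.03 contralaterally. They summed to 117, 148, 100.01 and 120.2 CPM in CTL and 248, 108, 137 and 126 CPM in BLZ945, and the most abundant was Igfbp2. C2 alone lay above the highest CTL mouse, so the sums of the groups overlapped. Aldh1a2, which makes retinoic acid in the meninges, was at 13.7, 13.8, 11.6 and 10.9 CPM in CTL and 30.1, 13.4, 21.02 and 23.1 CPM in BLZ945. C3 lay within the CTL range and the other BLZ945 mice above it, with a fold change of 0.80 ± 0.21, or 0.85 without A3, and a difference between the hemispheres of 0.92. Markers of choroid plexus, the ventricular tissue that makes cerebrospinal fluid, were far higher in A3 and C2 than in the other mice. They summed to 60.0, 2703, 32.5 and 372 CPM in CTL and 4489, 11.03, 51.1 and 61.5 CPM in BLZ945, with Ttr holding 86.7% and no marker at 0 in all 8 libraries. Of 10 markers, 9 had a higher mean in BLZ945, but their median of 0.50 was -2.41 without C2 and 2.22 without A3. Without both A3 and C2, an alternative chosen after seeing the data, the median of the collagen list was 0.21, of the fibroblast markers 0.21, of the interferon-stimulated genes 0.40, where 5 had an unadjusted p under 0.05, and of the reactive astrocyte genes 0.28. The study's methods state that choroid plexus was removed in the stroke experiment, while the labels of the tissue libraries give brain only. The part of choroid plexus and fibroblast tissue in these results was not tested further.

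**Figure D2:**
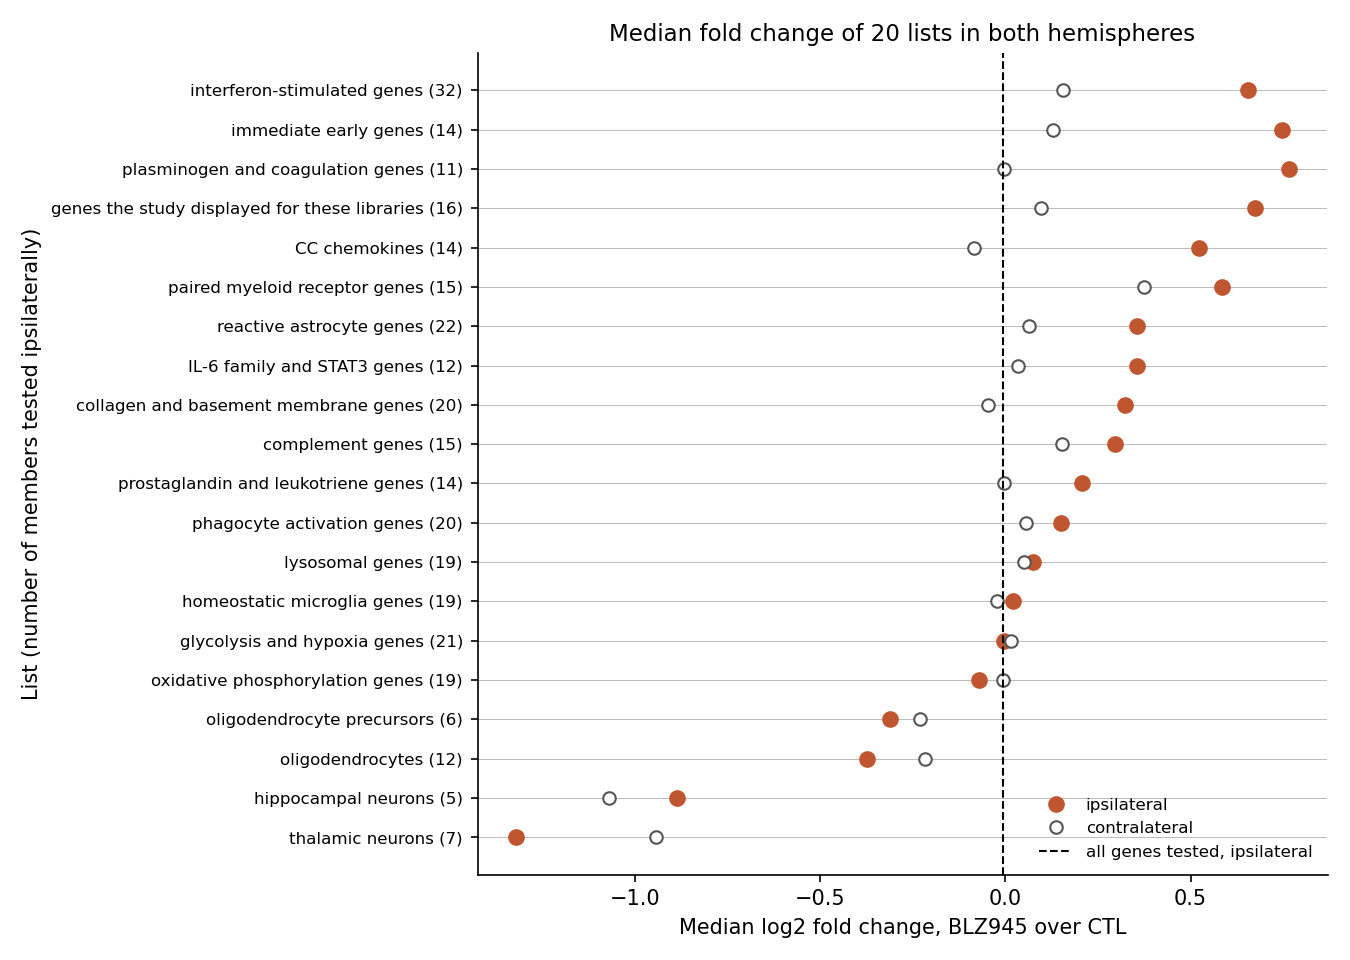
Median log2 fold change of BLZ945 over CTL for 20 lists, with the number of members tested in brackets, for ipsilateral (filled) and contralateral (open) libraries, and a dashed line at the ipsilateral median of all genes tested. Ipsilateral medians run from -1.32 for thalamic neuron markers to 0.77 for plasminogen and coagulation genes, and the glycolysis median of -0.00 is 0.01 with DESeq2 size factors.

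Phagocyte activation genes had higher levels in BLZ945 for some surface receptors, while the most abundant member had the opposite sign. Of 20 members, 16 had a higher mean, with a median of 0.15, or 0.20 without A3 and 0.06 contralaterally, and 0.11 to 0.24 as each mouse was left out. Clec7a, the beta-glucan receptor dectin-1, was at 0.625, 0.943, 1.41 and 3.05 CPM in CTL and 6.14, 4.51, 2.00 and 7.09 CPM in BLZ945. C4 lay below B1 and the other BLZ945 mice above it, and the fold change was 1.70 ± 0.50, or 1.53 without A3. Itgax, the integrin CD11c, was at 0.859, 0.772, 1.41 and 1.89 CPM in CTL and 2.93, 2.81, 2.63 and 2.40 CPM in BLZ945. The groups did not overlap, with a fold change of 1.11 ± 0.33, or 0.94 without A3. Cd68, a lysosomal glycoprotein of phagocytes, was at 18.6, 18.6, 19.4 and 21.4 CPM in CTL and 26.7, 40.4, 21.2 and 26.9 CPM in BLZ945. C3 was far the highest mouse, C4 lay just below B1, and the fold change was 0.55 ± 0.17 [0.35 to 0.68], or 0.53 without A3. Apoe, a lipid carrier and the member with the highest CPM, was at 1336 CPM on average in CTL and 1112 CPM in BLZ945, and Fabp5, a fatty acid carrier, had a fold change of -0.35 ± 0.12, or -0.32 without A3.

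Cd36, a scavenger receptor for oxidized lipids, was at 1.17, 1.03, 0.531 and 1.89 CPM in CTL and 4.82, 3.01, 2.31 and 3.80 CPM in BLZ945. All BLZ945 mice were above all CTL mice, A4 was the lowest, and the fold change was 1.57 ± 0.38, or 1.52 without A3, with a difference between the hemispheres of 2.02, for which C3 and C4 were under the floor of 3 counts contralaterally. Cd72, a receptor of B cells and myeloid cells, was at 2.42, 1.80, 2.48 and 2.14 CPM in CTL and 3.97, 3.91, 3.68 and 3.995 CPM in BLZ945. The BLZ945 mice lay close together above the CTL mice, with a fold change of 0.80 ± 0.21, or 0.72 without A3. Rab7b, a lysosomal GTPase, was at 2.65, 2.66, 2.21 and 3.62 CPM in CTL and 6.61, 5.21, 3.99 and 5.49 CPM in BLZ945. C4 was the lowest BLZ945 mouse and still above B1, and the fold change was 0.92 ± 0.24, or 0.90 without A3, with a difference between the hemispheres of 0.94. Adam8, a surface protease of leukocytes, was at 4.76, 7.63, 6.72 and 7.50 CPM in CTL and 18.3, 7.22, 10.2 and 18.1 CPM in BLZ945. C2 and D1 were high and C3 lay within the CTL range, with a fold change of 1.01 ± 0.30, or 1.08 without A3, and a difference between the hemispheres of 1.61. The 16 genes that the study displayed for these libraries, Cd36, Cd72, Cxcl10, Itgax, Plau, Cd68 and Timp1 among them, all had a higher mean in BLZ945. Of these, 9 were at an unadjusted p under 0.05, against 1.74% of all genes tested. The median of the 16 was 0.67, and 0.10 contralaterally. The study chose them on these samples, so their direction is not independent evidence.

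Chemokines and adhesion molecules that draw leukocytes were high in some mice of each group. Of 14 CC chemokines, 12 had a higher mean in BLZ945, or 9 without A3, with a median of 0.52 [0.18 to 0.77], or 0.18 without D1, 0.28 without C2 and -0.08 contralaterally. Ccl7, a ligand for monocyte receptors, was at 1.01, 0.857, 0.354 and 1.73 CPM in CTL and 4.63, 1.504, 0.841 and 3.10 CPM in BLZ945. C2 and D1 were the highest mice and C3 and C4 overlapped the CTL range, with a fold change of 1.33 ± 0.56 [0.85 to 1.74], or 1.27 without A3. Ccl2, the main attractant of monocytes, was at 2.19, 4.12, 2.21 and 5.93 CPM in CTL and 10.2, 2.01, 2.52 and 8.79 CPM in BLZ945. It showed the same pair of high BLZ945 mice, and its fold change was 0.70 ± 0.53 [0.29 to 1.05], or 0.76 without A3. Sele, the endothelial selectin E, was at 0.0781, 0.429, 0.0884 and 0.330 CPM in CTL and 2.74, 0.401, 0.526 and 4.79 CPM in BLZ945. C2 and D1 were high, C3 lay below A3, and the fold change was 3.14 ± 0.86, or 3.58 without A3, with all CTL mice but A3 and B1 under the floor of 3 counts. Selp, Icam1 and Vcam1, which catch rolling leukocytes or hold them, overlapped between the groups, with fold changes of 0.84 ± 0.86 [-0.28 to 1.16], 0.36 ± 0.37 [0.17 to 0.83] and 0.10 ± 0.25 [-0.18 to 0.27]. No direction is read from Selp or Vcam1, since Selp was at -0.28 without D1 and Vcam1 at -0.18 without C2.

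Of 14 adhesion genes, 12 had a higher mean in BLZ945, with a median of 0.23 [0.05 to 0.47], or 0.05 without C2, 0.12 without D1, 0.47 without B1 and -0.08 contralaterally. The CXC and CX3C chemokines had 6 of 10 members with a higher mean and a median of 0.27 [0.06 to 0.52], Cxcl9 being at 0 in all 8 libraries. Paired myeloid receptor genes had 12 of 15 members higher and a median of 0.59 [0.36 to 0.80], against 0.37 contralaterally. Toll-like receptor genes had 11 of 15 higher (median 0.13 [0.08 to 0.23], or 0.23 without A3), TNF and NF-kappaB genes 11 of 15 (0.21 [0.07 to 0.32]), and interleukin-1 and inflammasome genes 11 of 15 (0.17 [-0.02 to 0.38]). Tlr2, a receptor for bacterial lipopeptides, was at 2.97, 4.54, 4.24 and 9.31 CPM in CTL and 11.7, 10.5, 4.52 and 10.5 CPM in BLZ945. C4 lay near the lower CTL mice and B1 near the other BLZ945 mice, and the fold change was 0.81 ± 0.37 [0.62 to 1.24], or 0.75 without A3. Il1rn, the interleukin-1 receptor antagonist, was at 1.56, 3.86, 2.56 and 8.40 CPM in CTL and 9.92, 3.61, 3.89 and 16.9 CPM in BLZ945, highest in D1, with a fold change of 1.06 ± 0.57 [0.50 to 1.68], or 1.03 without A3. Matrix protease and inhibitor genes had 10 of 16 members higher and a median of 0.34 [0.21 to 0.52], against -0.17 contralaterally. Mmp3, stromelysin, was at 1.95, 2.83, 2.92 and 5.93 CPM in CTL and 12.2, 1.70, 5.04 and 9.59 CPM in BLZ945, lowest in C3 and highest in C2, with a fold change of 1.06 ± 0.52 [0.67 to 1.47], or 0.98 without A3.

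Immediate early genes, which neurons and glia switch on within minutes of a stimulus, had a higher mean in BLZ945 for all 14 of 14 members, with a median of 0.75, or 0.61 without A3 and 0.13 contralaterally. They summed to 580.0, 692, 1029 and 1927 CPM in CTL and 2313, 2645, 1051 and 1218 CPM in BLZ945. B1 lay among the BLZ945 mice, and A2 and A3 were lowest. At an unadjusted p under 0.05 there were 2 of 14 members, against 1.74% of all genes tested. The count was 11 without B1, 5 without C4, 1 without A2, A3 or C2 and 0 without both A3 and C2. With sex as a covariate the median was 0.26, and it ranged from 0.52 to 1.16 as each mouse was left out. Egr1, a zinc finger transcription factor, was at 173, 199, 335 and 416 CPM in CTL and 496, 711, 429.8 and 376 CPM in BLZ945. D1 lay below B1, C3 was highest, and the fold change was 0.83 ± 0.28, or 0.70 without A3. Egr2, its relative, was at 2.19, 3.86, 8.84 and 12.7 CPM in CTL and 25.5, 15.3, 10.5 and 11.2 CPM in BLZ945, again with B1 inside the BLZ945 range, and had a fold change of 1.18 ± 0.47, or 0.98 without A3. Ptgs2, the inducible cyclooxygenase, was at 22.3, 15.2, 14.9 and 42.3 CPM in CTL and 84.1, 101, 13.7 and 28.6 CPM in BLZ945. C2 and C3 were the highest mice and C4 the lowest of all, with a fold change of 1.25 ± 0.55 [0.83 to 1.69], or 1.09 without A3. Prostaglandin and leukotriene genes, Ptgs2 among them, had a higher mean in BLZ945 for all 14 of 14 members, with a median of 0.21 [0.07 to 0.39], or 0.07 without C2, 0.39 without C3 and -0.00 contralaterally.

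Markers of microglia were at like levels in both groups. They summed to 219, 249, 260.3 and 219 CPM in CTL and 234, 262, 216 and 232 CPM in BLZ945, and 4 of 7 had a higher mean, with a median of 0.02 [-0.10 to 0.05]. The sums overlapped throughout, and no marker of the list that is in the count table was at 0 in all 8 libraries. The wider list of homeostatic microglia genes had 11 of 19 members higher and a median of 0.02 [-0.06 to 0.06], whose sign depended on the mouse left out. Csf1r, the target of BLZ945, was at 106, 124, 124 and 109.7 CPM in CTL and 109, 103, 103 and 113 CPM in BLZ945. The groups overlapped, A3 and A4 were highest, and the fold change was -0.13 ± 0.08, or -0.09 without A3. P2ry12, a purine receptor of resting microglia, was at 14.1, 16.5, 22.99 and 12.7 CPM in CTL and 14.9, 16.9, 12.4 and 14.1 CPM in BLZ945, with A4 above all others and a fold change of -0.19 ± 0.19 [-0.30 to 0.00], or -0.19 without A3. Siglech, a microglial lectin, was at 9.76, 11.9, 11.3 and 7.66 CPM in CTL and 9.07, 6.32, 6.52 and 7.69 CPM in BLZ945. C3 and C4 were lowest, C2 and D1 overlapped the CTL mice, and the fold change was -0.46 ± 0.19, or -0.38 without A3. Crybb1, a crystallin made by microglia, was at 2.19, 4.20, 3.36 and 1.57 CPM in CTL and 1.51, 1.504, 0.631 and 1.90 CPM in BLZ945, where C4 was lowest and B1 within the BLZ945 range, with a fold change of -1.02 ± 0.40, or -0.77 without A3, and -0.93 contralaterally.

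Border macrophage markers were low in this tissue, at 7.03, 10.8, 11.3 and 7.83 CPM summed in CTL and 13.9, 10.1, 11.4 and 9.49 CPM in BLZ945, with Mrc1 the most abundant. C2 was highest and A2 lowest, and the groups overlapped. Of 7 markers, 6 had a higher mean in BLZ945, with a median of 0.56 [0.31 to 0.63], or 0.41 without A3, 0.31 without C2 and -0.02 contralaterally. Only 3 of the 7 had a mean of at least 1 CPM. Mrc1, the mannose receptor, was at 3.44, 5.49, 3.54 and 3.79 CPM in CTL and 5.76, 3.71, 3.15 and 4.79 CPM in BLZ945, overlapping, with a fold change of 0.09 ± 0.26 [-0.07 to 0.27], or 0.27 without A3, so its sign depended on the mouse left out. Lyve1, a hyaluronan receptor, was at 1.25, 0.943, 1.15 and 0.741 CPM in CTL and 3.21, 1.10, 1.89 and 1.498 CPM in BLZ945. C3 lay below A2 and A4, C2 was highest, and the fold change was 0.90 ± 0.39 [0.53 to 1.10], or 0.87 without A3. Folr2, a folate receptor of these macrophages named after its values were seen, had no count in any CTL mouse and was at 0.283, 0.201, 0 and 0 CPM in BLZ945, where C2 was at the floor of 3 counts and the others under it, so no fold is given. The wider list of border macrophage genes had 12 of 15 members higher and a median of 0.54 [0.16 to 0.57], or 0.16 without C2, 0.31 with sex as a covariate and 0.21 without A2 and B1. MHC class II genes had 6 of 9 higher and a median of 0.26 [0.07 to 0.54], or 0.54 without A3, and the CSF1 receptor axis with myeloid transcription factors 13 of 15 and 0.15 [0.14 to 0.23]. Csf2rb, the shared receptor chain for GM-CSF and interleukin-3, was at 2.42, 4.29, 3.36 and 4.61 CPM in CTL and 8.12, 4.11, 6.20 and 7.39 CPM in BLZ945. C3 overlapped the CTL mice, the other BLZ945 mice lay above them, and the fold change was 0.81 ± 0.27, or 0.89 without A3.

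Markers of blood leukocytes were low in both groups. Neutrophil markers summed to 5.00, 7.89, 7.69 and 9.89 CPM in CTL and 9.54, 5.31, 9.67 and 9.89 CPM in BLZ945, mostly from Csf3r (66.2%), with Stfa2l1 and Elane at 0 in all 8 libraries and a median of 0.18 [-0.17 to 0.53] that was -0.17 without A2. Of the 9 neutrophil markers tested, 2 had a mean of at least 1 CPM, so no direction is read from this median. Monocyte markers summed to 16.7, 18.4, 16.6 and 20.1 CPM in CTL and 37.3, 19.2, 20.3 and 29.9 CPM in BLZ945, of which Fxyd5 made up 80.9%, and 7 of 9 had a higher mean, with a median of 0.82 [0.31 to 1.18], or 0.31 without C2. C2 and D1 were the highest mice, as for several chemokines above, and the groups overlapped. Of the 9 monocyte markers tested, 2 had a mean of at least 1 CPM, so no direction is read from the monocyte median either. Contralaterally, 3 of 6 monocyte markers tested had a higher mean, with a median of -0.03. Fxyd5, a membrane protein that other cells also carry, was at 15.1, 14.3, 13.8 and 15.2 CPM in CTL and 27.7, 17.4, 17.7 and 23.3 CPM in BLZ945. No mouse crossed between the groups, and the fold change was 0.55 ± 0.16, or 0.54 without A3, with a difference between the hemispheres of 0.73. Ccr2, the receptor for Ccl2, was at 0.234, 0.514, 0.796 and 1.48 CPM in CTL and 2.93, 0.301, 0.631 and 1.90 CPM in BLZ945, overlapping, with a fold change of 0.92 ± 0.69 [0.31 to 1.48], or 0.78 without A3. T, NK and B cell markers summed to 14.1, 33.9, 49.2 and 13.6 CPM in CTL and 19.6, 47.6, 50.6 and 35.3 CPM in BLZ945, 72.4% of it Cd4, and red cell markers to 8.59, 3.17, 3.01 and 10.2 CPM and 5.86, 4.01, 3.89 and 11.6 CPM, with Hba-a1 the most abundant and Hba-a2 at 0. Cd3e, Cd3d and Cd3g had only 8, 4 and 4 counts summed over the 8 libraries. Cd4 was lowest in A2 and B1, as were the striatal markers below, so no lymphocyte level is read from this sum. The part of these cells in the results above was not tested.

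Oligodendrocyte lineage markers had a lower group mean in BLZ945 in each member tested, although most overlapped between the groups. All 6 precursor markers had a lower mean, with a median of -0.31, or -0.24 without A3 and -0.23 contralaterally. All 12 markers of mature oligodendrocytes did too, with a median of -0.37 [-0.52 to -0.22], or -0.29 without A3, -0.22 without B1, -0.52 without A4 and -0.22 contralaterally. The same 6 and 12 markers all had a lower mean contralaterally as well. For the difference between the hemispheres, 0 of either list had an unadjusted p under 0.05. Mature markers summed to 6768, 9476, 5698 and 11636 CPM in CTL and 7465, 5079, 5184 and 7898 CPM in BLZ945, with Mbp the most abundant. A3 and B1 were highest, and A2 and A4 lay within the BLZ945 range. At an unadjusted p under 0.05 there was 1 mature marker, Aspa, while 1.74% of all genes tested were lower at that p. The count was 6 without A4, 4 without D1, 2 without A2 and 0 without A3, B1, C3 or C4. Olig1, a transcription factor of the lineage, was at 128, 191, 124 and 189.7 CPM in CTL and 129, 104, 90.0 and 139.9 CPM in BLZ945. C2 and D1 lay above the lower CTL mice, and the fold change was -0.46 ± 0.18, or -0.36 without A3. Aspa, which breaks down N-acetylaspartate in myelinating cells, was at 18.7, 25.98, 18.7 and 28.999 CPM in CTL and 18.4, 11.3, 12.2 and 21.1 CPM in BLZ945, lowest in C3 and C4, with a fold change of -0.56 ± 0.22, or -0.50 without A3. Mbp, myelin basic protein, was at 2158, 3123, 1947 and 4214 CPM in CTL and 2487, 1581, 1661 and 2587 CPM in BLZ945, with B1 far the highest and a fold change of -0.47 ± 0.25 [-0.61 to -0.22], or -0.43 without A3. Matn4, a matrix protein of the nervous system, was at 9.76, 10.3, 9.20 and 10.6 CPM in CTL and 7.56, 5.81, 6.20 and 6.19 CPM in BLZ945. All BLZ945 mice were below all CTL mice, and the fold change was -0.64 ± 0.15, or -0.62 without A3, with -0.59 contralaterally.

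Markers of brain regions differed widely between mice of the same group. Thalamic markers summed to 786, 469.5, 119.9 and 1505 CPM in CTL and 645, 73.6, 195 and 329.5 CPM in BLZ945, the most abundant being Prkcd, with no marker at 0 in all 8 libraries. B1 was highest and C3 lowest, and the groups overlapped. All 7 had a lower mean in BLZ945, with a median of -1.32 [-1.81 to -0.75], or -1.41 without A3 and -0.94 contralaterally. Hippocampal markers, 5 of 5 lower with a median of -0.89, summed to 129, 84.2, 41.6 and 134 CPM in CTL and 88.0, 29.4, 43.7 and 72.9 CPM in BLZ945, with Prox1 the most abundant, and A4, C3 and C4 were the lowest mice. Contralaterally, 5 of 5 hippocampal markers were also lower, with a median of -1.07. Striatal markers summed to 824, 1887, 3056 and 796 CPM in CTL and 1364, 2436, 2732 and 1786 CPM in BLZ945, 8 of 9 with a higher mean and a median of 0.33 (0.12 to 0.89 as each mouse was left out), and were lowest in A2 and B1, the mice with the highest thalamic sums. Without A2 and B1, an alternative chosen after seeing the data, the median was -0.05 for thalamic, -0.23 for hippocampal and -0.27 for striatal markers, while it was -0.42 for precursor, -0.28 for mature oligodendrocyte markers and 0.59 for interferon-stimulated genes, of which 5 then had an unadjusted p under 0.05. Cabp7 was likewise lowest among CTL mice in A4, whose thalamic and hippocampal sums were the lowest of that group. The part of tissue region in the results was not tested further.

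The genes from Fibcd1 to Higd1b below were lower in BLZ945 with no overlap between the groups, and were not tested as a group. Fibcd1, a marker of hippocampal CA1 neurons, was at 36.6, 17.7, 18.9 and 20.3 CPM in CTL and 11.7, 11.9, 15.1 and 12.3 CPM in BLZ945. A2 was far above the rest, all BLZ945 mice lay below all CTL mice, and the fold change was -0.89 ± 0.22 [-0.9975 to -0.58], or -0.9975 without A3. Contralaterally, the Fibcd1 fold change was -0.70. Spink8, another hippocampal marker, was at 2.89, 1.29, 1.68 and 2.14 CPM in CTL and 0.378, 0.602, 1.16 and 0.2996 CPM in BLZ945, where A2 was highest and C4 the highest BLZ945 mouse, with a fold change of -1.72 ± 0.46, or -1.88 without A3. St6galnac5, a brain sialyltransferase that builds gangliosides, was at 77.2, 62.7, 72.8 and 69.6 CPM in CTL and 50.8, 57.7, 53.7 and 52.0 CPM in BLZ945. C3 lay just below A3, no mouse crossed, and the fold change was -0.41 ± 0.09, or -0.46 without A3. Lrrc55, a subunit of potassium channels, was at 61.1, 44.0, 41.7 and 61.3 CPM in CTL and 36.1, 39.9, 34.8 and 30.0 CPM in BLZ945, with D1 lowest and a fold change of -0.57 ± 0.15, or -0.65 without A3. Pcdh20, a protocadherin, Cpne6, a calcium-dependent membrane-binding protein of neurons, and Kctd4 had fold changes of -0.75 ± 0.20, -0.40 ± 0.11 and -0.55 ± 0.16, with contralateral fold changes of -0.59, -0.53 and -0.45. Cfap52, a cilium protein, had a fold change of -1.43 ± 0.40 but 0.46 contralaterally, AB041806 of -1.13 ± 0.31, and Higd1b, a pericyte gene, of -0.89 ± 0.26. Ependymal markers, which share cilium genes, had a lower mean in BLZ945 for 10 of 10 members, with a median of -0.37 [-0.71 to -0.04], but 6 were lower without A3, where the median was -0.04. Contralaterally, 7 of the 10 ependymal markers had a higher mean, with a median of 0.09.

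**Figure D3:**
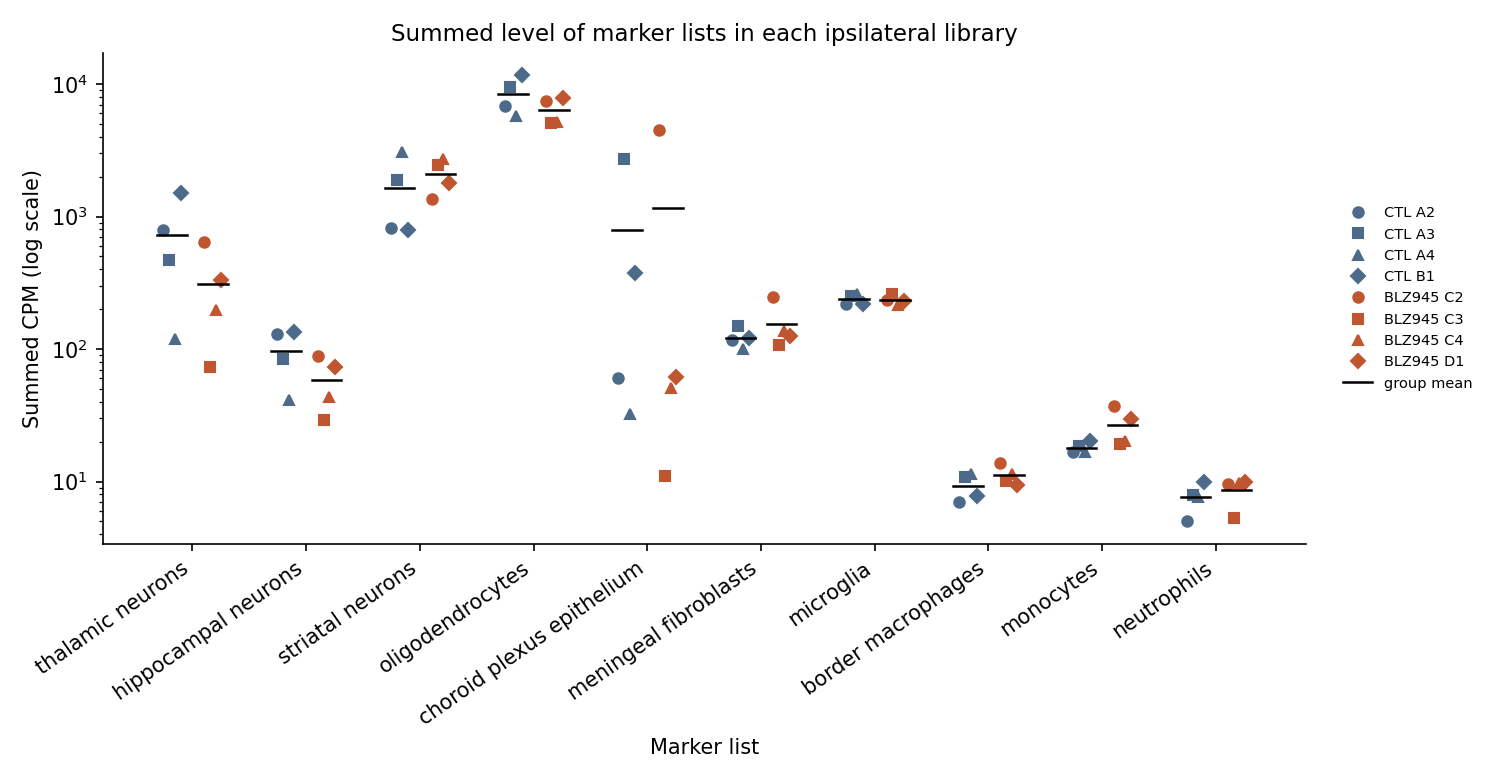
Summed CPM of 10 marker lists in each ipsilateral library on a log axis, with 1 point per mouse (4 CTL, 4 BLZ945) and a line at each group mean. Choroid plexus sums run from 11.03 to 4489 CPM and thalamic sums from 73.6 to 1505 CPM, while microglial sums stay between 216 and 262 CPM.

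Among the further higher genes with no overlap between the groups were Acvrl1, Fam111a, Dcaf12l2 and Midn, which were not tested as a group. Acvrl1, an endothelial receptor for bone morphogenetic proteins, was at 21.9, 27.8, 33.3 and 24.96 CPM in CTL and 38.8, 36.3, 44.9 and 36.7 CPM in BLZ945, with A2 lowest and C4 highest, and a fold change of 0.53 ± 0.13, or 0.54 without A3. Fam111a, a protease of the nucleus, was at 2.42, 2.23, 3.71 and 2.39 CPM in CTL and 4.82, 5.61, 4.31 and 5.79 CPM in BLZ945. A4 was the highest CTL mouse and still below C4, with a fold change of 0.92 ± 0.23, or 0.84 without A3. Dcaf12l2 and Midn, a nuclear protein that leads other proteins to the proteasome, had fold changes of 1.42 ± 0.33 and 0.31 ± 0.08, and contralateral ones of 0.56 and 0.19.

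The other gene groups that respond to ischemia had medians from -0.07 to 0.23. Lysosomal genes had 13 of 19 members higher and a median of 0.08 [0.04 to 0.11], Fc receptor and engulfment genes 10 of 13 and 0.15 [0.06 to 0.16], scavenger receptor and lipid genes 12 of 14 and 0.20 [0.06 to 0.27], and phagocyte NADPH oxidase genes 5 of 6 and 0.23. Ctsz, a lysosomal protease, was at 50.9, 64.2, 56.8 and 60.3 CPM in CTL and 77.5, 84.4, 59.2 and 72.5 CPM in BLZ945, with C4 inside the CTL range and a fold change of 0.33 ± 0.12, or 0.38 without A3. Heat shock genes had 11 of 13 members higher (median 0.10 [-0.10 to 0.19], or 0.05 without A3), NRF2, heme and metallothionein genes 8 of 12 (0.12 [0.01 to 0.17]) and integrated stress and unfolded protein genes 10 of 16 (0.02 [-0.09 to 0.07]). Hmox1, with the values given above, had a fold change of 0.58 ± 0.24, or 0.62 without A3, and A4 and C4 were close to each other. Glycolysis and hypoxia genes had 10 of 21 members higher and a median of -0.00 [-0.05 to 0.03], or 0.01 with DESeq2 size factors, and angiogenic endothelial genes 5 of 10 and -0.00 [-0.10 to 0.17], or 0.01 with those factors. Oxidative phosphorylation genes had a lower mean in 17 of 19 members, with a small median of -0.07 [-0.11 to -0.02], or -0.04 without A3, -0.02 without B1 and -0.11 without A4.

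Genes of proliferation and of neuronal signalling showed no common direction. S phase genes had 9 of 15 members higher (median 0.06 [-0.01 to 0.11]), G2 and mitosis genes 8 of 17 (-0.03 [-0.31 to 0.22]), glutamate and GABA receptor genes 12 of 22 (0.01 [-0.07 to 0.09]) and voltage-gated channel genes 14 of 19 (0.07 [-0.04 to 0.10]). Markers of all neurons had 7 of 11 higher (0.02 [-0.08 to 0.09]), cortical neurons 4 of 7 (0.21 [-0.14 to 0.34]), endothelial cells 7 of 13 (0.00 [-0.10 to 0.10]) and pericytes with smooth muscle 4 of 10 (-0.06 [-0.11 to 0.05]). No direction is read from these medians, since each of them changed sign when at least 1 mouse was left out. Gabra5, a subunit of extrasynaptic GABA receptors, was at 70.7, 49.8, 50.3 and 58.4 CPM in CTL and 43.7, 53.8, 46.5 and 42.7 CPM in BLZ945, with A2 highest and a fold change of -0.31 ± 0.13 [-0.38 to -0.19], or -0.37 without A3. Mcm7, a subunit of the replicative helicase, was at 15.7, 13.8, 12.998 and 11.8 CPM in CTL and 12.0, 10.6, 9.04 and 11.7 CPM in BLZ945, with C2 just above B1 and a fold change of -0.33 ± 0.15, or -0.33 without A3.

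Without A3, 0 of 18953 genes passed the edgeR test, and 276 (1.46%) were higher and 257 (1.36%) lower at an unadjusted p under 0.05. With the libraries of A3 exchanged as the column names have it, 0 of 19232 genes passed by edgeR, with 424 (2.2%) higher and 413 (2.15%) lower at an unadjusted p under 0.05. That setting puts library 20 into the CTL lesioned group. Its Osmr and Hmox1 levels, given above, were below those of every library labelled ipsilateral. After the exchange, the median of interferon-stimulated genes was 0.79, of plasminogen and coagulation genes 0.97, of reactive astrocyte genes 0.58 and of mature oligodendrocyte markers -0.33. Gpr17 was at -0.88, Fndc3b at 0.56, Prg4 at 1.72 and Osmr at 0.73 in that setting.

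The contralateral libraries of the same mice are given beside these results. There, the edgeR test called 0 of 18967 genes, 294 (1.55%) were higher and 404 (2.13%) lower at an unadjusted p under 0.05, or 1148 in all without A4, and DESeq2 called 1, Il16. Il16, a cytokine named here after its values were seen, was at 8.28, 4.72, 1.33 and 8.07 CPM in CTL and 1.79, 1.003, 1.26 and 0.899 CPM in BLZ945 ipsilaterally. A4 lay within the BLZ945 range and the other CTL mice above it, with fold changes of -2.17 ipsilaterally and -1.95 contralaterally. The difference between the hemispheres was tested in 18968 genes with edgeR, 0 passed after Benjamini-Hochberg adjustment, 386 (2.04%) had an unadjusted p under 0.05, and DESeq2 called 0, with 240 at an unadjusted p under 0.05. For no gene was the ipsilateral fold change shown to differ from the contralateral one.

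Sex was uneven between the groups. By Xist and Y-linked counts, A2, A3, A4 and D1 read as male and B1, C2, C3 and C4 as female, so CTL held 3 males and BLZ945 held 1. With sex as a covariate, the edgeR test called 0 genes, with 253 higher and 387 lower at an unadjusted p under 0.05. In that fit the fold change was -0.83 for Gpr17, 1.70 for Prg4, 0.58 for Fndc3b and 0.54 for C4b. Other named genes moved by more, Crybb1 from -1.02 to -0.58, Egr1 from 0.83 to 0.52, Egr2 from 1.18 to 0.78, Ptgs2 from 1.25 to 0.67 and Siglech from -0.46 to -0.30.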

How the data were processed

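Whole-tissue RNA of both hemispheres of 8 WT mice was sequenced, and the deposited table holds raw counts for 33280 genes, made by the authors with bcl2fastq 2.20, STAR 2.7.11a and featureCounts 2.0.8 and tested by them with DESeq2 1.46.0, as the submitters' processing notes say. The genome build of that table is not certain from the study's methods, and its genes are given here by symbol alone. The table of sorted macrophages was not used. The 8 ipsilateral libraries were fitted across all genes with the edgeR quasi-likelihood test (edgeR 4.0.16, R 4.3.3) after TMM scaling, leaving out genes whose counts summed to under 4 (under 8 for the 16 libraries), two-sided, with a gene called when its Benjamini-Hochberg adjusted p was below 0.05 and its log2 fold change passed 0.59. The contralateral libraries were fitted in the same way. The difference between the hemispheres was fitted to the group means of the 16 libraries without a block for the mouse, although each mouse gave both hemispheres. The values given for single genes come from that fit. Alternatives were DESeq2 1.42.0 and its size factors, other filters, sex as a covariate, a block for the mouse, each mouse left out, A3 exchanged and 2 pairs of mice left out. Named genes were the 12 with the smallest p in each direction among genes of at least 1 CPM with no overlap between the groups, the most abundant and up to 3 genes with the smallest p in each of 36 gene lists and 19 marker lists, and genes the study displayed, of which a few are not reported here. The members and lists were chosen with earlier results of these data known. The labels give both hemispheres to the same mouse, and as a check the log CPM of the hemispheres, each taken relative to its group mean, correlated across genes at r 0.202 to 0.654 (median 0.434) in the 8 mice, and at r -0.582 to 0.519 (median -0.125) in 24 pairs of different mice, so the ranges overlap, and centring on the group mean itself lowers the values of different mice. Between 2 ipsilateral libraries of a group (12 pairs) the variance was 8.63 to 32.6 times that of sampling. Summaries used Python 3.11.15, numpy 2.4.6, pandas 2.3.3 and matplotlib 3.10.9.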

Additional observations from a re-analysis of the deposited data

Results flagged for a closer look

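In 198 groups of 4 ipsilateral libraries, 14 had a sample far from the other 3, where chance gives about 1 in 20 groups. Choroid plexus markers summed to 2703 CPM in A3, with the other CTL mice at 32.5 to 372 CPM, and to 4489 CPM in C2, with the other BLZ945 mice at 11.03 to 61.5 CPM. Neuronal markers summed to 11822 CPM in A4 (other CTL mice 10928 to 11001 CPM) and to 14023 CPM in C3 (other BLZ945 mice 10293 to 10788 CPM). C3 was also apart for G2 and mitosis genes, at 27.5 CPM against 18.7 to 19.2 CPM, and for neutrophil markers, at 5.31 CPM against 9.54 to 9.89 CPM. Oxidative phosphorylation genes summed to 3921 CPM in C4, with the other BLZ945 mice at 4137 to 4157 CPM. B1 was above the other CTL mice for the genes the study displayed, at 141 CPM summed against 79.8 to 82.0 CPM, and for 3 of them singly. These were Cybb at 3.54 CPM against 1.33 to 1.46 CPM, Icam1 at 12.0 CPM against 4.37 to 5.14 CPM, and Mmp12 at 8.65 CPM against 2.34 to 3.27 CPM. Fam111a was at 3.71 CPM in A4 against 2.23 to 2.42 CPM in the other CTL mice. Fibcd1 was at 36.6 CPM in A2 against 17.7 to 20.3 CPM, and at 15.1 CPM in C4 against 11.7 to 12.3 CPM in the other BLZ945 mice.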

How the results depend on the processing

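The count of ipsilateral genes called was 0 with edgeR under every setting run and 3 with DESeq2. The ipsilateral count at an unadjusted p under 0.05 (668) ranged from 512 to 1278 as each mouse was left out. Contralaterally, DESeq2 called 1 gene, and the count at an unadjusted p under 0.05 (698) ranged from 524 to 1148 as each mouse was left out and was 462 without A2 and B1, which was chosen after seeing the data. For the difference between the hemispheres, the count at an unadjusted p under 0.05 (386) was 240 with DESeq2, 222 with edgeR's filterByExpr and 726 with A3 exchanged and the replicate block for the mouse, and ranged from 306 to 412 as each mouse was left out. The replicate block alone gave 451 and changed no call. The cause was not tested. Of 770 values of 55 list medians, 721 moved by less than the spread between mice, and the sign changed in 80 values of 21 lists, among them choroid plexus markers (0.50, or -2.41 without C2) and striatal markers (0.33, or -0.27 without A2 and B1). Of 3225 values of 215 named genes, 3214 kept their sign or moved by less than that spread, the sign changed in 143 values of 55 genes, and Gpr17, Prg4 and, below the fold threshold, Fndc3b had an adjusted p under 0.05 with DESeq2, as did Cabp7, which is outside the rule for naming genes. Limits are the 4 mice per group, the depth and the sex ratio that differ between the groups, and the floor of 3 counts, below which a difference was not detectable.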
